A study of Mus musculus with 6 samples.

Results

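The interferon-stimulated genes and the receptors, transcription factors and RNA sensors that control them were followed in differentiating C2C12 cells, a mouse myoblast line that fuses into myotubes when serum is lowered. Members were taken by symbol from a list of 44 genes; 40 were found among the 16854 genes measured, and Oas1a, Rsad2, Mx1 and Ifi44 are not analysed here. Control cells are labelled scramble, and knockdown cells stably expressed a short hairpin RNA against Adamtsl2, which encodes a secreted matrix glycoprotein. Both groups were C2C12 cells grown to confluence and kept for 3 days in 2% horse serum, with 3 libraries each. The labels do not say whether the libraries of a group came from separate cultures, whether the cells were clonal, or whether more than 1 hairpin was used, so p-values measure the spread between these libraries, which may be technical.

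Cells make interferon after sensors such as RIG-I and MDA5 bind foreign or displaced RNA. Type I interferon binds the receptor pair IFNAR1 and IFNAR2, and the attached kinases JAK1 and TYK2 activate a complex that includes STAT2 and IRF9 and binds the interferon-stimulated response element (ISRE) in promoters. Interferon gamma acts through IFNGR1 and IFNGR2 on promoters with the gamma-activated site (GAS). The induced proteins block viral RNA, translation, membrane fusion and vacuoles, and many also have low levels in unstimulated cells.

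Promoters are shown first because the response element is the DNA feature these genes are known for. RefSeq promoters (GRCm38.p6) matched 34 of the 40 genes by symbol; Dhx58, Usp18, Parp9, Parp14, Iigp1 and Ifi27 had no entry. The 250 bases before each start were searched on both strands for the ISRE core, here GAAA followed by any pair of bases and GAAA, and for TTCNNNGAA, the GAS; overlapping matches were counted separately. The ISRE core was found in 12 of the 34 genes (35.3%), against 3.46% of all 27025 genes with a promoter entry, and TTCNNNGAA in 8 (23.5%), against 8.13%. The stretches below end at or before the start and belong to the 4 genes with an ISRE core and the smallest adjusted p, with Isg15 added after its values were seen because it held the most copies; capitals mark the ISRE cores, on the gene's own strand, 5′ to 3′.
Ifit3, plus strand, chr19:34583353-34583528: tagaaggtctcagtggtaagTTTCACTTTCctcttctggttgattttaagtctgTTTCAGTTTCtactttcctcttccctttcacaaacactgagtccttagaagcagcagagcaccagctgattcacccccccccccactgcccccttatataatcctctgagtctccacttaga
Ifit3b, plus strand, chr19:34607749-34607956: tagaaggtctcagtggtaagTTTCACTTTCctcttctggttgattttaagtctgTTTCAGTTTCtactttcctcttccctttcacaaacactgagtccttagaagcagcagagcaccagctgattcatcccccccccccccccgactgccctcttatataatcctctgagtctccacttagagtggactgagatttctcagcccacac
Gbp3, plus strand, chr3:142559924-142560025: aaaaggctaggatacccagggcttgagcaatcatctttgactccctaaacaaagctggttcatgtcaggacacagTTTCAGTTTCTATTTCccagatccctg
Igtp, plus strand, chr11:58199436-58199555: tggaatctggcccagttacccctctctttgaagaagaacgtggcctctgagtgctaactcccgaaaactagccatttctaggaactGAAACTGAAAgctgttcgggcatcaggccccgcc
Isg15, minus strand, chr4:156200819-156200938: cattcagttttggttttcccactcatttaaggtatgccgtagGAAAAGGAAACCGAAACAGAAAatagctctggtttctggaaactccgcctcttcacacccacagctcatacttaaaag

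In Ifit3, Ifit3b and Gbp3 the core lies on the opposite strand and so reads with TTTC at both ends, and in Igtp and Isg15 it lies on the gene's own strand, with GAAA at both ends. Ifit3 and Ifit3b were identical at 216 of 218 aligned bases (99.1%) of their windows and carry the same pair of elements. The other genes with a match were Stat2, Ifit1, Gbp2, Gbp7, Irgm1, Ifitm2 and Bst2, and in Bst2 the core overlapped a TTCNNNGAA match. For 3 of the 12 genes with the core, Stat2, Ifit3b and Bst2, the bases after the RefSeq start were not found in a GENCODE transcript of the gene. A match describes letters in this window and is not a measurement of binding.

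Values are normalised counts, that is, reads per gene divided by a library size factor; log2 changes compare knockdown with control after adding 1, carry the standard error (SE, n = 3 per group) and were tested with limma and Benjamini-Hochberg adjustment over 16245 genes. Recovered reads totalled 37346439 to 50329438 per library. Adamtsl2 itself read 1325, 1266 and 1307 in control and 23.2, 21.7 and 7.83 in the knockdown. Muscle markers show how far the groups stood apart: 12 of 13 fell and Myf5 rose (adjusted p = 0.0248; 0.0686 with a replicate block and up to 0.103 with a library left out), and their summed value was 1135000 to 1153000 in control and 11090 to 13630 in knockdown libraries. Knockdown library 3 differed from the other knockdown libraries (r = 0.917 and 0.920 across genes, against 0.993 to 0.996 for other pairs within a group). In such bulk RNA, fewer cells expressing a gene and less RNA per cell cannot be told apart.

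Interferon genes were mostly higher in the knockdown. Of the 40 members, 31 rose and 1, the GTPase gene Igtp, fell at an adjusted p under 0.05, where 21.7% of all genes tested rose and 23.5% fell (45.2% in either direction). At least 2-fold rises were found for 27 members (15.6% of all genes) and at least 8-fold rises for 8: Herc6, Ifit3, Ifit3b, Gbp2, Gbp3, Gbp7, Iigp1 and Ifitm1 (4.05% of all genes). Every knockdown value lay above every control value in 34 members (30.0% of all genes) and below in 2, Igtp and Trim25 (32.7% of all genes); 62.6% of all genes had no overlap in either direction. The median log2 change was 1.42, against 0.00 for all genes, whose median moved to 0.11 under upper-quartile scaling; the members' median is the same with Ifit3b, which had no control reads, at its lower bound. All 40 members passed the minimum of 10 in 3 libraries. However, 7 (Usp18, Herc6, Gbp2, Gbp3, Gbp7, Iigp1, Ifit3b) were under 10 in at least 1 control library. They needed knockdown values to pass the minimum, which favours a rise. Of the other 33, 24 rose and 1 fell, 20 rose at least 2-fold, and 2, Ifit3 and Ifitm1, rose at least 8-fold. The median log2 change of these 33 was 1.265. The shares given for all genes include genes that needed the knockdown to pass the minimum. Without knockdown library 3, 35 rose and 3 fell, where 38.6% and 39.9% of all genes did, and all 32 calls made with 6 libraries kept their direction. Knockdown libraries 1 and 2 stood close together (r = 0.996 across genes). Adjusted p values without library 3, here and for single genes below, rest on that narrow spread, which may be technical. On the recovered reads, edgeR called 33 members higher and 1 lower (23.2% and 22.0% of all genes), DESeq2 34 and 1 (27.2% and 25.8%), and edgeR without library 3, added after seeing the data, 36 and 3 (39.9% and 39.8%). For single genes, an exact permutation test of 3 against 3 libraries cannot go below p = 0.1.

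**Figure D1:**
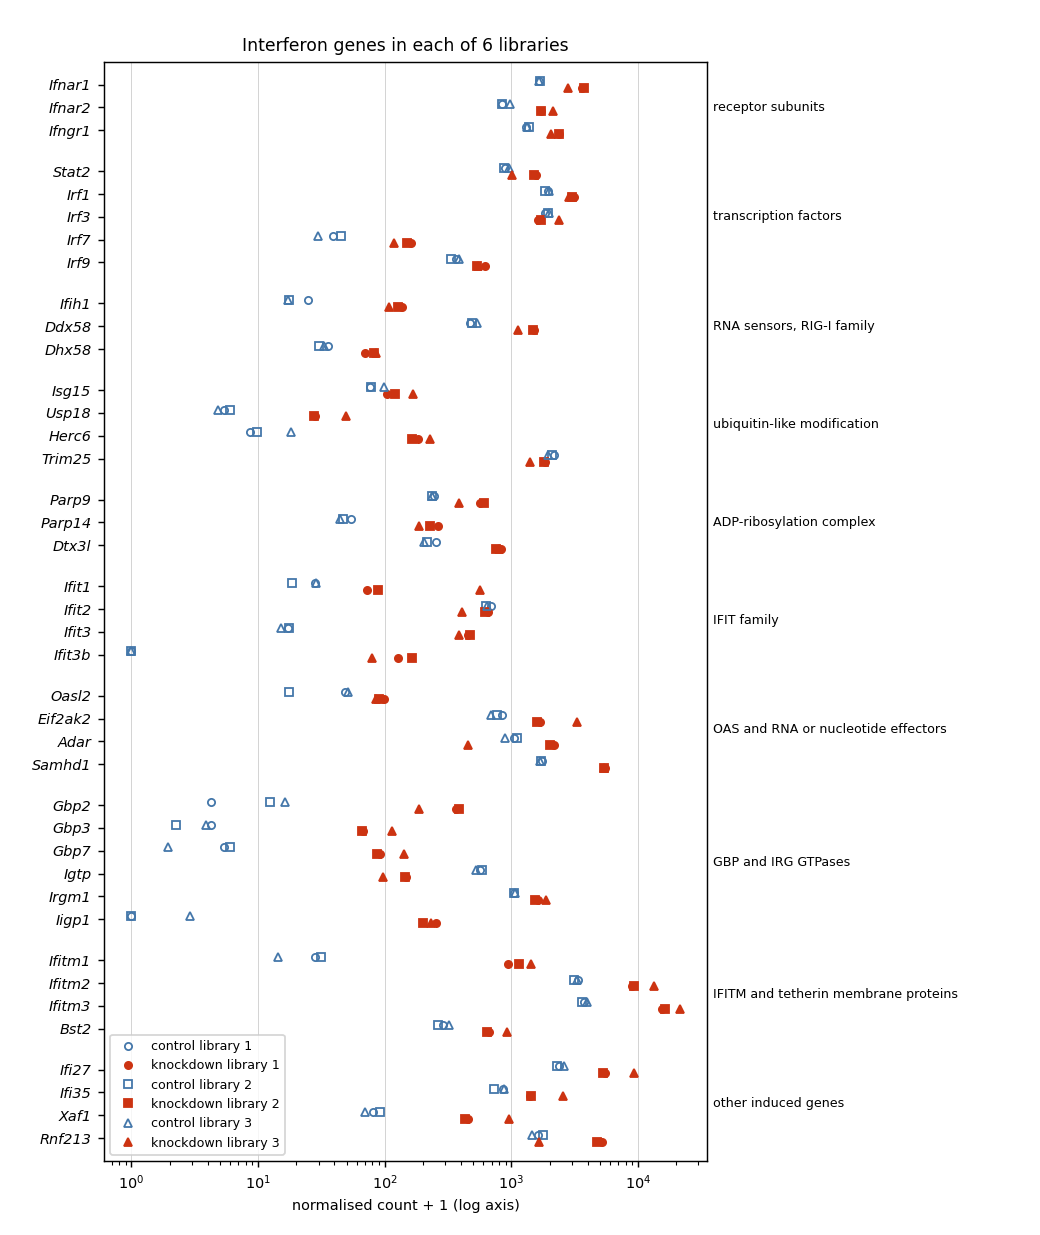
Normalised count plus 1 (log axis) of the 40 interferon genes in the 3 control (open) and 3 knockdown (filled) libraries, grouped by role; each point is 1 library. In 34 genes all knockdown points lie to the right of all control points, and in Igtp and Trim25 to the left.

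All 3 receptor subunits among the members rose. Ifnar1, a chain of the type I interferon receptor, read 1652, 1666 and 1657 in control and 3611, 3775 and 2777 in the knockdown (log2 1.02 ± 0.15, adjusted p = 0.00232). Its partner Ifnar2 rose by 1.07 ± 0.14, from 882 ± 73.5 to 1855 ± 234 (SD, n = 3). These genes lie 79648 bp apart on chromosome 16 (GRCm38, Ifnar1 at 91485238 to 91507441). Ifngr1, the ligand-binding chain of the interferon gamma receptor, rose by 0.76 ± 0.11 (adjusted p = 0.00251), from 1305 to 1379 in control libraries to 2066 to 2379 in the knockdown. The receptor groups did not overlap in any of these genes.

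Among the transcription factors, 3 of 5 rose and the others did not pass. Irf7, the factor that amplifies interferon production, was at 38.1, 44.2 and 28.5 in control and 160.0, 149 and 116 in the knockdown (log2 1.92 ± 0.26, adjusted p = 0.00164). It was the lowest of the 5 in control per exonic length, at 9.79 normalised counts per kilobase against 66.9 to 557 for the others. Irf1, which also responds to interferon gamma, rose by 0.64 ± 0.10, from 1924 ± 67.7 to 2997 ± 132, and Irf9, the DNA-binding part of the STAT complex, by 0.64 ± 0.13, from 361 ± 24.3 to 563 ± 44.1 (SD, n = 3). Stat2 read 892, 866 and 954 in control and 1569, 1496 and 1003 in the knockdown. Its groups do not overlap, but the third knockdown value is close to control (log2 0.56 ± 0.20, adjusted p = 0.0621); without that library its change was 0.76 (adjusted p = 1.82e-06), and edgeR and DESeq2 on all libraries gave adjusted p = 0.0372 and 0.0149. Irf3, the constitutive factor activated by the RNA sensors, overlapped between groups (1827, 1938 and 1989 against 1621, 1707 and 2384; log2 -0.03 ± 0.17, adjusted p = 0.898), and its log2 change was above 0 with edgeR, DESeq2 and upper-quartile scaling. Without library 3 it was lower by a small margin (log2 -0.20, adjusted p = 0.00821).

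The RIG-I family of cytoplasmic RNA sensors rose in all 3 members. Ifih1, which encodes MDA5, read 24.0, 16.4 and 16.2 in control and 136, 125 and 106 in the knockdown (log2 2.65 ± 0.26, adjusted p = 4.6e-04). Ddx58, which encodes RIG-I itself, rose by 1.45 ± 0.16, from 497 ± 35.7 to 1370 ± 205 (SD, n = 3). Dhx58, which encodes LGP2, a modulator of both sensors, rose by 1.26 ± 0.22, from 29.1 to 34.9 in control to 68.8 to 85.0 in the knockdown. Per exonic length Ddx58 stood above Ifih1 in control (70.5 against 2.31 normalised counts per kilobase) and in the knockdown (194 against 15.01).

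Of the 4 genes of ubiquitin-like modification, those of the ISG15 ligase and protease rose and that of the modifier did not pass. The ligase and protease genes, Herc6 and Usp18, needed knockdown values to pass the minimum, which favours a rise. Isg15 and Trim25 were at 10 or more in every control library. Isg15, the ubiquitin-like protein that is joined to targets, read 75.2, 77.0 and 97.9 in control and 104, 119 and 165 in the knockdown. Its groups do not overlap, but their means differed by 1.55-fold only (log2 0.61 ± 0.25, adjusted p = 0.0933). Without library 3 its change was 0.42 (adjusted p = 0.0510 with limma and 0.0291 with edgeR). Herc6, the mouse ISG15 ligase, read 7.63, 8.84 and 17.1 in control and 182, 162 and 225 in the knockdown (log2 4.03 ± 0.35, adjusted p = 3.04e-04). Usp18, which removes ISG15 and damps the type I receptor, rose by 2.65 ± 0.36, from 3.80, 4.36 and 5.05 in control to 26.8 to 48.1 in the knockdown. Trim25, the ubiquitin ligase that activates RIG-I, was lower in every knockdown library (2156, 2083 and 1955 against 1829, 1800.1 and 1397) without passing (log2 -0.31 ± 0.14, adjusted p = 0.130); without library 3 it passed at -0.19 (adjusted p = 0.0127).

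The ADP-ribosylation genes Parp9, Dtx3l and Parp14, whose proteins have been linked to interferon signalling, lie within 1 stretch of chromosome 16 and all rose. Dtx3l, the ubiquitin ligase of the complex, read 255, 213 and 201 in control and 829, 751 and 791 in the knockdown (log2 1.83 ± 0.15, adjusted p = 2.25e-04). Its partner Parp9 rose by 1.09 ± 0.20, from 239 ± 5.71 to 518 ± 116 (SD, n = 3), with 386 in library 3 against 565 and 604. They overlap at their 5′ ends, are read in opposite directions and share 458 exonic bases, which is 8.0% of Dtx3l and 9.4% of Parp9, and whether counting used strand is not given in the sources used here. Parp14, a larger ADP-ribosyltransferase 54966 bp from Dtx3l, rose by 2.21 ± 0.21, from 43.7 to 53.4 in control to 187 to 263 in the knockdown. No value of these genes overlapped between the groups, where 62.6% of all genes had no overlap in either direction.

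The IFIT genes, whose proteins bind foreign RNA and translation factors, form 1 cluster on chromosome 19 (34550694 to 34650009) and had unlike values. Ifit3 read 16.3, 16.4 and 14.3 in control and 457, 469 and 383 in the knockdown (log2 4.71 ± 0.19, adjusted p = 2.17e-05). Ifit3b had 0 control reads and 125, 162 and 78.3 in the knockdown, at least 36.9-fold higher with 3 reads per control library as the floor, which covers counting error alone. The 2 genes share 100-base stretches of transcript, 31.7% of those of Ifit3 and 27.4% of those of Ifit3b, and how reads that fit both were counted is not given in the sources used here. Ifit1 read 27.2, 17.7 and 27.6 in control and 71.3, 87.0 and 560.1 in the knockdown. The third library thus holds 7.08 times the mean of the first and second, and the rise of 9.91-fold (log2 2.63 ± 0.80, adjusted p = 0.0395) was 3.28-fold without it (log2 1.69, adjusted p = 1.74e-04). Leaving out a control library gave Ifit1 an adjusted p between 0.0983 and 0.126, and leaving out knockdown library 2 one of 0.05, so the call was lost. Ifit2, the member at the edge of the cluster and 7111 bp from Ifit3, overlapped between groups, at 692, 629 and 644 in control and 651, 618 and 405 in the knockdown (log2 -0.26 ± 0.21, adjusted p = 0.355). In control it was the most abundant IFIT gene per exonic length (167 normalised counts per kilobase against 0 to 9.10), and in the knockdown Ifit3 was (250.1 against 61.0 to 142).

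**Figure D2:**
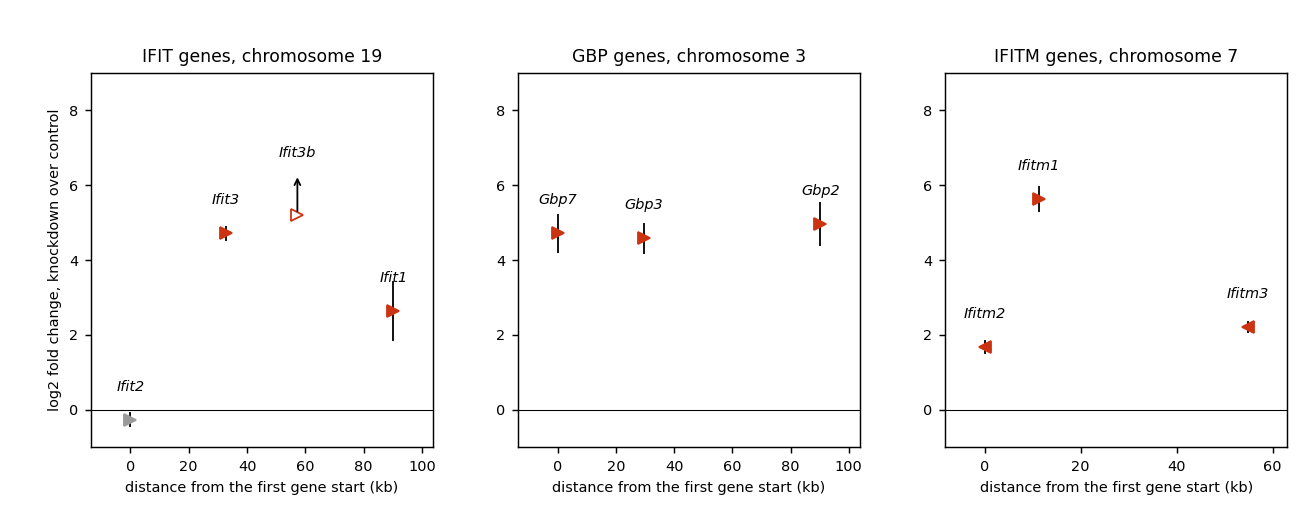
Log2 change (points, ± SE, n = 3 per group) of the IFIT, GBP and IFITM genes against the distance in kb of each start from the first start of its cluster; triangles point in the direction of transcription, and grey means not past the threshold. Ifit3b, with no control reads, is shown open at its lower bound of 5.21 with an arrow; the 3 GBP genes lie between 4.58 and 4.97, and Ifit2 at -0.26.

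Effectors that act on RNA and nucleotides were split, with 2 of 4 past the threshold. Samhd1, which breaks down deoxynucleotides, read 1753, 1706 and 1690.2 in control and 5513, 5420.3 and 5342 in the knockdown, with little spread in either group (log2 1.66 ± 0.10, adjusted p = 7.1e-05). Eif2ak2, the RNA-activated kinase PKR that halts translation, rose by 1.44 ± 0.30 (adjusted p = 0.0101), with knockdown values of 1680.5, 1588 and 3313 against 695 to 838 in control. Oasl2, an OAS-like protein, read 47.9, 16.4 and 50.4 in control and 97.8, 89.5 and 83.8 in the knockdown, and did not pass (log2 1.37 ± 0.46, adjusted p = 0.0520). Its second control value is low; without that library the change was 0.86 (adjusted p = 0.0448), and without knockdown library 3 it was 1.42 (adjusted p = 0.00981). Adar, the enzyme that edits double-stranded RNA and limits MDA5, read 1057, 1110.2 and 893 in control. Its knockdown values were 2182, 2004 and 453, so that libraries 1 and 2 lay above all controls and library 3 below them (log2 0.31 ± 0.61, adjusted p = 0.715). Without library 3 the change of Adar was 1.04 (adjusted p = 2.18e-06). On the opposite strand, Chrnb2 covers 16.8% of the Adar exons, and its own values were 50.4 to 86.2 over the 6 libraries.

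Of the 6 GTPase genes 5 rose and 1 fell, the only fall among the members. Iigp1, Gbp2, Gbp3 and Gbp7 needed knockdown values to pass the minimum, which favours a rise. The others, Irgm1, which rose, and Igtp, which fell, passed the minimum in the control libraries alone. Iigp1, of the immunity-related GTPases that attack parasite vacuoles, had 2 control reads, both in library 3, and read 251, 198 and 233 in the knockdown, a ratio of 313 with a 95% counting interval of 86.5 to 2593. Gbp2, a guanylate-binding protein of the same defence, read 3.27, 11.4 and 15.2 in control and 364, 386 and 184 in the knockdown (log2 4.97 ± 0.58, adjusted p = 0.00101). Its neighbours on chromosome 3 also rose, Gbp3 by 4.58 ± 0.41 (1.26 to 3.27 in control, 65.2 to 113 in the knockdown) and Gbp7 by 4.71 ± 0.52 (at most 5.05 and 86.2 to 141). Over the 3 control libraries, Gbp2, Gbp3 and Gbp7 had 28, 7 and 9 reads, against 1065, 259 and 339 in the knockdown. The groups of all 3 genes stood apart, where 62.6% of all genes had no overlap in either direction.

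Igtp, also called Irgm3, regulates the same vacuole-targeting GTPases. It read 565, 587 and 519.7 in control and 145, 143 and 96.1 in the knockdown (log2 -2.14 ± 0.21, adjusted p = 4.65e-04), a 4.35-fold fall with no overlap, and fell by 1.94 without library 3. Its promoter, printed above, holds both the ISRE core and a TTCNNNGAA match. Irgm2, whose exons share 162 bases with those of Igtp on the same strand (8.01% of Igtp), was at 67.6, 121 and 98.8 in control and 170.0, 182 and 80.5 in the knockdown and did not pass (log2 0.54 ± 0.40, adjusted p = 0.316); without library 3 it was called higher (log2 0.91, adjusted p = 0.00372). Irgm1, the third regulator of the family, rose by 0.66 ± 0.12, from 1058 ± 13.5 to 1676 ± 173 (SD, n = 3). Per exonic length, Irgm1 and Igtp were at 182 and 276 normalised counts per kilobase in control cells and at 288 and 63.3 in knockdown cells.

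All 4 membrane proteins rose. Ifitm3, which blocks fusion of viruses with endosomes, was the most abundant member per exonic length, at 5541 normalised counts per kilobase in control and 26011 in the knockdown. It read 3744, 3607 and 3919 in control and 15369, 16191 and 21347 in the knockdown (log2 2.22 ± 0.16, adjusted p = 1.53e-04). Ifitm2, its neighbour with a similar role, rose by 1.67 ± 0.18, from 3260 ± 121 to 10553 ± 2444 (SD, n = 3); 34.9% of its 100-base transcript stretches also occur in other annotated genes. Ifitm1, the plasma membrane member, read 27.2, 30.3 and 13.3 in control and 943, 1137 and 1432 in the knockdown, a rise of 49.6-fold (log2 5.63 ± 0.35, adjusted p = 9.13e-05). So within 54783 bp of chromosome 7 a gene at low level in control and 2 highly expressed genes all rose. Bst2, the tetherin that holds budding virions, rose by 1.33 ± 0.19, from 261 to 323 in control to 637 to 921 in the knockdown.

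The remaining 4 induced genes had 3 past the threshold. Xaf1, a proapoptotic antagonist of XIAP, read 79.5, 90.9 and 69.4 in control and 450.2, 427 and 955 in the knockdown (log2 2.82 ± 0.35, adjusted p = 0.00118). Ifi27, a mitochondrial and nuclear envelope protein, rose by 1.41 ± 0.24, from 2428 ± 149.9 to 6659.6 ± 2259 (SD, n = 3). Ifi35, a leucine zipper protein, rose by 1.07 ± 0.26 (adjusted p = 0.0176), but leaving out control library 1, 2 or 3 gave adjusted p values of 0.0575, 0.0714 and 0.057. Rnf213, a giant ubiquitin ligase, read 1626, 1782 and 1453 in control and 5225, 4725 and 1644 in the knockdown. Its value in knockdown library 3 lies within the control range, and the change did not pass (log2 1.09 ± 0.45, adjusted p = 0.0965); it was 1.62 without that library (adjusted p = 3.63e-08), and edgeR and DESeq2 on all libraries gave adjusted p = 0.0494 and 0.0108.

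**Figure D3:**
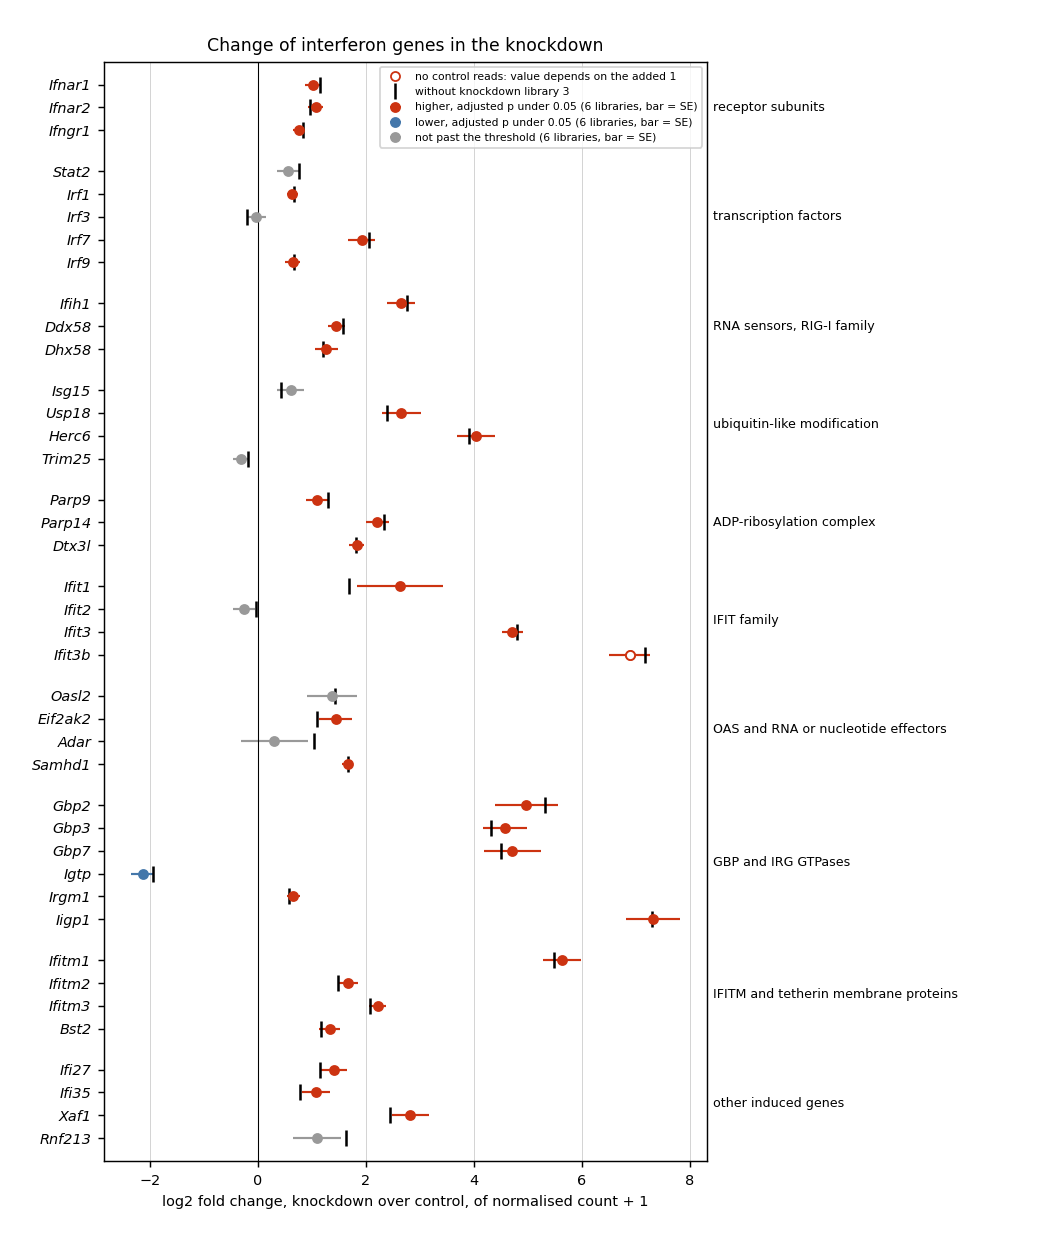
Log2 change of the 40 interferon genes (points, bars ± SE, n = 3 per group), coloured by call, with the value without knockdown library 3 as a black tick; genes are grouped by role. The point of Ifit3b is open because it had no control reads and its place depends on the added 1; Igtp is the only gene called lower, at -2.14.

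Knockdown library 3 was at least 2-fold above the mean of libraries 1 and 2 for 3 members, Ifit1, Xaf1 and Eif2ak2, where 21.1% of all genes were. It was at least 2-fold below for 3 others, Adar (4.62-fold), Rnf213 (3.03-fold) and Gbp2 (2.03-fold), where 16.7% of all genes were. The summed value of the 40 members was 29960 to 30610 in control libraries and 72060, 72140 and 83140 in knockdown libraries 1 to 3. Ifitm2, Ifitm3 and Ifi27 make up much of that sum.

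**Figure D4:**
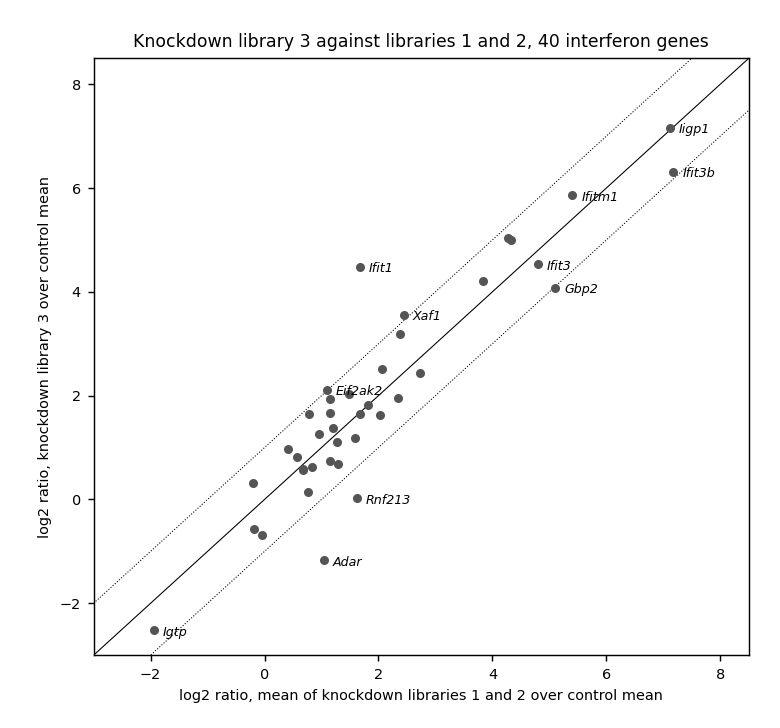
Log2 ratio to the control mean (values plus 1) of the 40 genes in knockdown library 3 against that in the mean of knockdown libraries 1 and 2; the solid line marks equality and the dotted lines a 2-fold difference. Ifit1 lies highest above the line (4.48 against 1.67) and Adar farthest below it (-1.17 against 1.04).

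Other genes of the pathway, from lists that hold none of the members, were also counted. None of the 12 interferon ligand genes listed is analysed here. Of 20 tested genes of receptors, kinases, STATs and their brakes, 10 rose and 2 fell, where 21.7% of all genes rose and 23.5% fell. Il10rb, a receptor chain for interferon lambda that lies beside Ifnar2, rose by 1.81 ± 0.11, and the ISG15-conjugating enzymes Uba7 and Ube2l6 rose by 3.11 ± 0.27 and 2.60 ± 0.25. The phosphatases Ptpn6 (log2 -1.76 ± 0.22) and Ptpn11 (log2 -1.40 ± 0.37) fell, the second with an adjusted p of 0.0246, which lay between 0.0759 and 0.0844 once a control library was left out.

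Of 20 tested genes of nucleic acid sensing outside the RIG-I family, 6 rose (30.0%, against 21.7% of all genes) and 1 fell (5.0%, against 23.5%). Without knockdown library 3, 9 rose and 6 fell, where 38.6% and 39.9% of all genes did. Tlr3, an endosomal sensor of double-stranded RNA, rose by 3.40 ± 0.33, from 18.1 to 41.7 in control to 284 to 342 in the knockdown. Ikbke, a kinase that activates IRF3 and IRF7, rose by 1.5 ± 0.15, and Nlrc5, an activator of MHC class I genes, by 2.29 ± 0.36. Nlrc5 read 10.9, 5.05 and 6.65 in control and needed knockdown values to pass the minimum, which favours a rise. Tank, an adaptor of these kinases, fell, with a log2 change of -0.87 ± 0.23 (adjusted p = 0.0232, and between 0.0588 and 0.087 once a control library was left out). The other tested sensing genes went both ways.

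A further 49 interferon-stimulated genes were tested, of which 26 rose (53.1%, against 21.7% of all genes), 5 fell (10.2%, against 23.5%) and 18 did not pass, with a median log2 change of 0.98. Of the 49, 11 were under 10 in at least 1 control library and needed knockdown values to pass the minimum, which favours a rise. Mx2, 1 of these, overlapped between groups and was not called (log2 0.38 ± 0.62, adjusted p = 0.652). Of the 38 at 10 or more in every control library, 16 rose (42.1%) and 5 fell (13.2%), with a median of 0.62. The risen genes named next, Gbp2b, Trim30d and Ccl5, are not of these 38 but were all among the 11 that needed knockdown values. Gbp2b, a guanylate-binding protein, rose by 5.20 ± 0.23, from 4.75 to 6.54 in control to 247 to 253 in the knockdown. Trim30d, of the TRIM family, had no control reads, so its rise was at least 34.4-fold with 3 reads per library as the floor. The chemokine Ccl5 had 3 control reads, 1 in each library, and a ratio of 280 (95% counting interval 95.4 to 1358). The genes that fell included Slfn9 (log2 -1.15 ± 0.20), Ifitm10 (log2 -1.97 ± 0.43) and Gbp10 (log2 -3.28 ± 0.76). The adjusted p of Ifitm10 was 0.0509 to 0.0535 without control library 1 or 3, and that of Gbp10 between 0.0502 and 0.0604 once any control library was left out.

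Markers of other cell types were read beside these changes. Of 18 leukocyte markers, 7 were measured and 11, with Ptprc and Adgre1 among them, are not analysed here; the 7 had a summed value of 258 to 304 in control and 1154 to 1685 in the knockdown. Without Cd14, which holds most of that rise, the sums were 122 to 163 in control and 206 to 503 in the knockdown. Cd14, Lyz2 and Coro1a rose, Itgam fell and was at 0 in knockdown libraries 1 and 2, and Cd68, Csf1r and Fcer1g did not pass; without library 3, Csf1r (log2 -2.06, adjusted p = 1.32e-04) and Fcer1g (log2 -1.84, adjusted p = 0.00225) were called lower as well. Lyz2 and Coro1a passed the minimum only through the knockdown. Of 10 endothelial markers, 5 were measured, of which 1 rose, 3 fell and 1 did not reach the minimum for testing. Their sum was 339 to 407 in control and 61.4 to 216 in the knockdown. Tek, the gene that rose, passed the minimum only through the knockdown. Pecam1, the gene not tested, read 4.97, 2.51 and 68.2 in knockdown libraries 1 to 3 and 1.90 to 4.36 in control. Of 12 fibroblast and mesenchymal markers, 10 were measured. Of these, 4 rose (Dcn, Ly6a, Cd34 and Clec3b) and 2 fell (Col1a1 and Pi16), where 21.7% of all genes rose and 23.5% fell. Dcn, Cd34 and Ly6a rose 19.8-, 82.9- and 247-fold. The sums were 765200 to 836900 in control and 358400 to 505900 in the knockdown. Most of the control sum was Col1a1 (mean 317446 in control and 10710 in the knockdown) and Col3a1 (467593 and 288050, not passed). The part of these markers in the rise of the interferon genes was not tested.

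The members lie on 15 chromosomes, and 18 of the 40 have another member within 1000000 bp. In the authors' deposited table, 34 members were higher, 1 was lower and 5 did not pass at an adjusted p under 0.05. That table and limma gave the same call for 37 members; Stat2, Oasl2 and Rnf213 were called higher in the authors' deposited table only.

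By promoter, 9 of the 25 risen members with an entry held the ISRE core (36.0%), as did 2 of the 8 that did not pass (Stat2 and Isg15) and Igtp. Ifit2, Irf3, Trim25, Oasl2, Adar and Rnf213, which did not pass, had no such match in the window. Among the risen members without one were Ifitm1, Ifitm3, Xaf1, Ifih1 and Herc6. Of all tested genes with a promoter entry, 3.04% held the core, including 4.26% of those that rose and 2.69% of those that fell.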

How the data were processed

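The members, lists and tests were chosen with earlier results of these data known. Reads were trimmed with Trimmomatic 0.36 and handled with Subread 1.5.2 (featureCounts), DESeq2 and GRCm38, per the submitters' processing notes. The aligner, strand setting and annotation release are not stated there. The deposited signal is, per library, a gene count divided by a size factor; 100% of values were whole multiples of 1 read (tolerance 0.01), so whole reads were recovered. Per the file headers, the table also holds the authors' log2 fold change and p-value.

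limma 3.58.1 (R 4.3.3) was run on log2(value + 1) with a variance prior that depends on abundance over the 16245 genes with at least 10 in at least 3 libraries, two-sided, at an adjusted p of 0.05; changes of low genes are understated. It was also run on simulated reads, whose spread came from the libraries other than knockdown library 3. Changes were planted there only in well expressed genes, so this check does not cover library 3 or low genes. Alternatives were other filters (none, or 50), pseudocounts (0.5, 5) and scalings (TMM, upper quartile), no trend, edgeR 4.0.16, DESeq2 1.42.0, a replicate block and each library left out; edgeR without knockdown library 3 was added after seeing the data. edgeR called 7344 genes and DESeq2 8461. Positions and exonic lengths came from GENCODE M21 (GRCm38), matched by identifier for 16812 genes. Named were all members, Adamtsl2 and, per pathway list, up to 3 genes per direction by smallest adjusted p. Ifngr2 was named in addition, as the partner of Ifngr1. Intervals and floors cover counting error only. A withheld item is not reported here.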

Additional observations from a re-analysis of the deposited data

How the results depend on the processing

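Of the 32 members called, 30 kept call and direction in every alternative that tested them. The exceptions were Ifit1 and Ifi35, both with 1 library left out. Usp18 was too low to be tested with a minimum of 50. The count of members that rose was 31 to 34 with other filters, pseudocounts, scalings and tools on 6 libraries, and 29 to 35 with 1 library left out, where 1 to 3 fell; edgeR without knockdown library 3 gave 36 and 3. The members' median log2 change was 1.404 to 1.489 with 1 library left out. The replicate numbers did not pair the libraries (correlations of same-numbered deviations 0.0169, 0.105 and 0.143), and a replicate block gave 31 members higher and 1 lower, with no member's call changed. Irf3, which did not pass, had a log2 change above 0 with upper-quartile scaling (0.0855), edgeR (0.0234) and DESeq2 (0.0081), and ran from -0.2045 to 0.0739 with 1 library left out (0.0364 without knockdown library 2). Adar ran from -0.0921 without knockdown library 1 (-0.0308 without knockdown library 2) to 1.04 without knockdown library 3. Falling genes of signalling and sensing numbered 3, or 5 with DESeq2, 1 to 9 with 1 library left out and 9 with edgeR without knockdown library 3; 16 rose, or 14 to 23 with 1 library left out. Falling genes among the other interferon-stimulated genes numbered 5, or 3 with a minimum of 50, 1 to 9 with 1 library left out and 10 with edgeR without knockdown library 3; 26 rose, or 24 to 35. The causes were not tested. With a few reads in control, the size of a change in Ifit3b, Iigp1, Gbp3 and Gbp7 is limited by depth.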
